A study of Mus musculus with 25 samples.

Results

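Oxidative phosphorylation subunits are the nuclear-encoded proteins of the mitochondrial respiratory chain and of the ATP synthase, and their messenger RNAs were followed here in mouse pancreatic islets. Members were taken by gene symbol: every symbol that begins Ndufa, Ndufb, Ndufc, Ndufs, Ndufv, Uqcr, Cox4, Cox5, Cox6, Cox7, Cox8 or Atp5, together with Sdha, Sdhb, Sdhc and Sdhd. This gave 96 genes of the 17894 listed in at least 1 of the 4 deposited tables, and 85 of the 96 were listed in all 4. By role, 38 belonged to complex I, 4 to complex II, 8 to complex III, 19 to complex IV and 17 to complex V. The remaining 10 were assembly factors that the symbols take in: the Ndufaf genes, which help to build complex I, and Atp5s and Atp5sl. Ndufa4 and its paralogue Ndufa4l2 were counted with complex IV. The table of the high-fat diet held 87 members among 12822 genes. There were 91 among 15468 genes in that of WT, 94 among 17549 in that of the PBS groups and 91 among 16958 in that of the db groups. Subunits encoded by the mitochondrial genome were not analysed here.

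The islet RNA came from pools of at least 3 mice, and 19 libraries in 8 groups had values. On a high-fat diet (HFD) of 3 months, 2 libraries were labelled flox/flox and 2 BcBKO, which the series describes as a beta-cell-specific ablation made with Pdx1-cre. Both groups ate the same diet. The series title names BAF60C, a subunit of the SWI/SNF chromatin remodelling complex encoded by Smarcd3. In the PBS table, 2 libraries each were labelled CTR_PBS, KO_PBS and KO_REG3B-Fc, so that both KO groups share the KO label and differ in having received PBS (saline) or REG3B-Fc, by its name REG3B joined to an Fc part. REG3B is a secreted lectin of the regenerating islet-derived family. In the db table, 2 libraries were labelled db_GFP and 2 db_REG3B, and 5 further libraries were labelled WT with no treatment given. The gene behind the label KO, the meaning of db, the route of REG3B, and the age and sex of the mice are not given in the sources used here. The labels do not say whether the pools of a group came from separate animals, so p-values measure the spread between these libraries, which may be technical.

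Complexes I and II pass electrons from NADH and succinate to coenzyme Q, complex III passes them to cytochrome c, and complex IV passes them to oxygen, while complexes I, III and IV pump protons that drive ATP synthesis by complex V. In beta cells the ATP made this way links glucose metabolism to insulin release. Several complex IV subunits exist as paralogues used in different tissues: Cox6a1 is the widely expressed form, and Cox6a2 is the form of heart and skeletal muscle. Many nuclear genes of the chain are known targets of the transcription factors NRF1 and GABPA.

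Promoter sequence was looked up because the members are known for shared promoter motifs, and RefSeq entries (build GRCm38.p6) were found for 79 of the 96 members. The 250 bases before each start were searched on both strands for 4 motifs. The NRF1 core (GCGC, any base, then TGCGC) was found in 14 of 79 members (17.7%) and in 4.23% of the 27025 genes with an entry. The ETS motif of GABPA, CCGGAAGT, was found in 3 of 79 (3.80%) against 3.23% of all genes. The YY1 motif AAGATGGC stood in 2.53% of members against 1.83%, and CCAAT in 45.6% against 37.5%. None of the 4 motifs contains another, and a match is a description of the letters only. By role, the NRF1 core was found in 2 of 3 complex II genes, 4 of 15 complex V genes, 6 of 33 complex I genes, 1 of 14 complex IV genes, 0 of 5 complex III genes and 1 of 9 assembly factors with an entry. Among the members described below as higher in KO_PBS, 6 of the 31 with an entry held it (19.4%), as did 8 of the 41 other members tested in that table (19.5%). For the ETS motif these counts were 3 of 31 (9.68%) and 0 of 41, for YY1 0 of 31 and 1 of 41, and for CCAAT 16 of 31 (51.6%) and 15 of 41 (36.6%). No test of these differences was made. The promoters of 3 members are shown, 5′ to 3′ on the gene's strand and ending at the base before the start, with NRF1 and ETS matches in capitals. They were picked for a gene that the results turn on and for matches to display, and are not typical of the set. Cox6a1 (chr5:115348959-115349208, minus strand) holds 2 NRF1 matches, of which the one nearer the start is on its opposite strand. Uqcrh (chr4:116075071-116075320, minus strand) holds 1 ETS match on its opposite strand, and Atp5o (chr16:91931631-91931880, minus strand) neither.
Cox6a1: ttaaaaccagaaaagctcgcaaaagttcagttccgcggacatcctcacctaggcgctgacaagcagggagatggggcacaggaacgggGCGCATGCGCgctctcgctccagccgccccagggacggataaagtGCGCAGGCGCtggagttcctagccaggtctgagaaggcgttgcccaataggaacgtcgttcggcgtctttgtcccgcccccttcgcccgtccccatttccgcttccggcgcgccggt
Uqcrh: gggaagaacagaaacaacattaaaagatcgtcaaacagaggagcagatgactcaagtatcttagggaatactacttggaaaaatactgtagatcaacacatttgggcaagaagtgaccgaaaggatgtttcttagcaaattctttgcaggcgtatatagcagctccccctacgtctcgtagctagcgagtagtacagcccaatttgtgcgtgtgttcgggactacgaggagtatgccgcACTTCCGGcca
Atp5o: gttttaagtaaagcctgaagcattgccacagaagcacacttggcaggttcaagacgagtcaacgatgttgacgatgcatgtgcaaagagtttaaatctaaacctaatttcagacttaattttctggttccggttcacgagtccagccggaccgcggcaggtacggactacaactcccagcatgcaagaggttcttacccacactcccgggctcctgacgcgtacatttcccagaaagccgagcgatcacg
The first letters of the NRF1 matches of Cox6a1 lie at positions -162 and -117, and that of the ETS match of Uqcrh at -11, counted from the start. Cox6a2 is named only.

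Levels are given as FPKM (fragment counts divided by transcript length and by library size), a unit in which levels of different genes can be set side by side. In CTR_PBS the median of the members' group means was 154.2 FPKM for complex V, 91.8 for complex III, 82.0 for complex IV, 63.8 for complex II, 51.9 for complex I and 5.97 for the assembly factors. Atp5l, a membrane subunit of the ATP synthase, had the highest mean of complex V at 374 FPKM, and Cox8a, a small subunit of complex IV, the highest of its complex at 301.8. The subunits of a complex were thus far from equal in RNA level, and the median of the assembly factors was below that of each complex in all 8 groups. Single assembly factors overlapped with subunits: Ndufaf8 had a mean of 24.1 FPKM in CTR_PBS. Some restricted isoforms were low: Cox6b2, Cox7b2 and Cox8b, forms known from testis or muscle, reached at most 0.25, 0.22 and 1.25 FPKM in the 6 libraries of the PBS table. Others were higher in CTR_PBS: Ndufa4l2 at 5.02 and 4.93 FPKM, Cox6a2 at 20.4 and 18.0, and Atp5g1, also counted as restricted, at 90.9 and 87.0. Cox4i2, the paralogue of Cox4i1 best known from lung, stood between 0.595% and 1.91% of Cox4i1 over the 19 libraries. Ndufb4 was at 49.3 and 39.6 FPKM in CTR_PBS and its near-identical copy Ndufb4c at 43.1 and 51.5, and how the authors' counting divided reads between them is not given in the sources used here.

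FPKM are shares of a library, and the libraries differed in the RNA of other cells. Insulin RNA (Ins1 and Ins2) made up 57.5 to 58.4% of summed FPKM in the CTR_PBS libraries, 38.2 to 38.9% in KO_PBS and 57.7 to 58.1% in KO_REG3B-Fc. The 13 acinar markers took 12.6 to 12.7%, 25.8 to 27.0% and 10.6 to 10.7%. On the deposited scale the median gene was 0.44 lower on the log2 scale in KO_PBS than in CTR_PBS, and 0.53 higher in KO_REG3B-Fc than in KO_PBS. Each library was therefore divided by its median ratio to the geometric mean library of its table (median scaling), and changes below are relative to the median gene unless the deposited scale is named. Smarcd3 stood at 2.57 and 2.55 FPKM in flox/flox on HFD, 3.11 and 2.40 in BcBKO on HFD. It stood at 1.03 and 1.15 FPKM for CTR_PBS and at 0.75 and 1.09 for KO_PBS. These levels were low and were not lower in both BcBKO libraries than in their controls. Which part of the gene was deleted is not given in the sources used here, so whole-gene values do not check the labels. Reg3b, the mouse gene of REG3B, was at 667.2 and 633.9 FPKM for CTR_PBS, 1227 and 1181 for KO_PBS, and 303.8 and 311.9 for KO_REG3B-Fc. It was at 21.8 and 26.5 FPKM for db_GFP and at 10.4 and 9.98 for db_REG3B, so this transcript was not higher in the libraries labelled REG3B. The labels do not say whether what was given would add to it. Groups are named as labelled throughout. In whole islets, fewer cells of a type and less RNA per cell cannot be told apart.

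Cox6a2 had the largest change of all members tested in each of the 5 comparisons, and 3 of these changes passed the test, while its paralogue Cox6a1 changed by at most 0.20 in either direction after median scaling. In RefSeq's annotation of GRCm38.p6 both are protein-coding genes, Cox6a2 at chr7:128205435-128206366 and Cox6a1 at chr5:115345652-115348958. In CTR_PBS, Cox6a2 was at 20.4 and 18.0 FPKM as deposited (mean 19.2 ± 1.72 SD, n = 2). The KO_PBS libraries had 6.27 and 4.55 FPKM (5.41 ± 1.22), and the KO_REG3B-Fc libraries 25.3 and 27.1 (26.2 ± 1.25). Both KO_PBS libraries lay below all others of the table and both KO_REG3B-Fc libraries above them, with no overlap between the 3 groups. Cox6a1 in the same order of groups was at 178.2 and 182.7, 136.4 and 146.1, and 192.9 and 195.9 FPKM. In db_GFP, Cox6a2 was at 5.18 and 4.07 FPKM (4.63 ± 0.785), and in db_REG3B at 13.9 and 12.5 (13.2 ± 1.00). The db_REG3B libraries were both above the db_GFP ones, while Cox6a1, at 452.6 and 448.4 against 393.9 and 436.2 FPKM, was not.

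After median scaling, Cox6a2 was 1.20 lower on the log2(FPKM + 1) scale in KO_PBS than in CTR_PBS (SE 0.11, adjusted p = 6.46e-05, limma with Benjamini-Hochberg adjustment over 11789 genes), which is 0.436 times the control value of FPKM + 1. Fold changes in this paragraph are of FPKM + 1, and understate those of FPKM. It was 1.53 higher in KO_REG3B-Fc than in KO_PBS (SE 0.11, adjusted p = 1.61e-05, limma), or 2.89-fold. That was the largest rise of all 11789 genes tested in this comparison after median scaling, but ranked 162 by size with falls included. Against CTR_PBS the KO_REG3B-Fc libraries were 0.33 higher, which did not pass (adjusted p = 0.109, limma), although it did on the deposited scale (0.43, adjusted p = 0.0257) and when the 2 groups were fitted alone (0.34, adjusted p = 0.0141). The 2 comparisons with KO_PBS share the same 2 KO_PBS libraries. In db_REG3B, Cox6a2 was 1.40 higher than in db_GFP (SE 0.10, adjusted p = 2.90e-05, limma), or 2.65-fold. That was the 14th largest rise of 12507 genes, and ranked 267 by size with falls included. In the authors' deposited table the changes were -1.33 (adjusted p = 3.96e-07), 1.68 (adjusted p = 2.60e-12) and 1.59 (adjusted p = 0.000142) in the same order. Cox6a1 rose by 0.17 in KO_PBS (adjusted p = 0.0211, limma) and was 0.17 lower in KO_REG3B-Fc than in KO_PBS (adjusted p = 0.0226), but on the deposited scale both signs were turned (-0.35 and 0.46). The first of these calls was also lost without CTR_PBS replicate 1 or 2 or KO_PBS replicate 2, and the second without KO_PBS replicate 2 or KO_REG3B-Fc replicate 1.

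Set against Cox6a1 within each library, Cox6a2 reached 11.4 and 9.83% of it for CTR_PBS, 4.60 and 3.12% for KO_PBS, and 13.1 and 13.8% for KO_REG3B-Fc. It was at 1.14 and 0.908% in db_GFP and at 3.53 and 2.86% in db_REG3B. This ratio is hardly touched by library scaling. The mean log2 ratio was 1.31 lower in KO_PBS than in CTR_PBS, 1.64 higher in KO_REG3B-Fc than in KO_PBS, 0.33 higher in KO_REG3B-Fc than in CTR_PBS and 1.46 higher in db_REG3B than in db_GFP. The groups did not overlap in these 4 comparisons, and each gave an exact permutation p = 0.333 (two-sided), which is the smallest that 2 libraries against 2 allow. On HFD, Cox6a2 was at 30.6 and 42.2 FPKM in flox/flox and at 20.3 and 31.8 in BcBKO, or 10.8 and 22.6% against 8.55 and 16.5% of Cox6a1. These groups overlapped (difference of the log2 ratio -0.38, exact permutation p = 0.667), and the sign turned when BcBKO replicate 1 (0.0865) or flox/flox replicate 2 (0.147) was left out. Within each replicate number the ratio was lower in BcBKO, at 8.55 against 10.8% and 16.5 against 22.6%. The labels do not say that these numbers pair the libraries, and leaving out a library unbalances them.

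**Figure D1:**
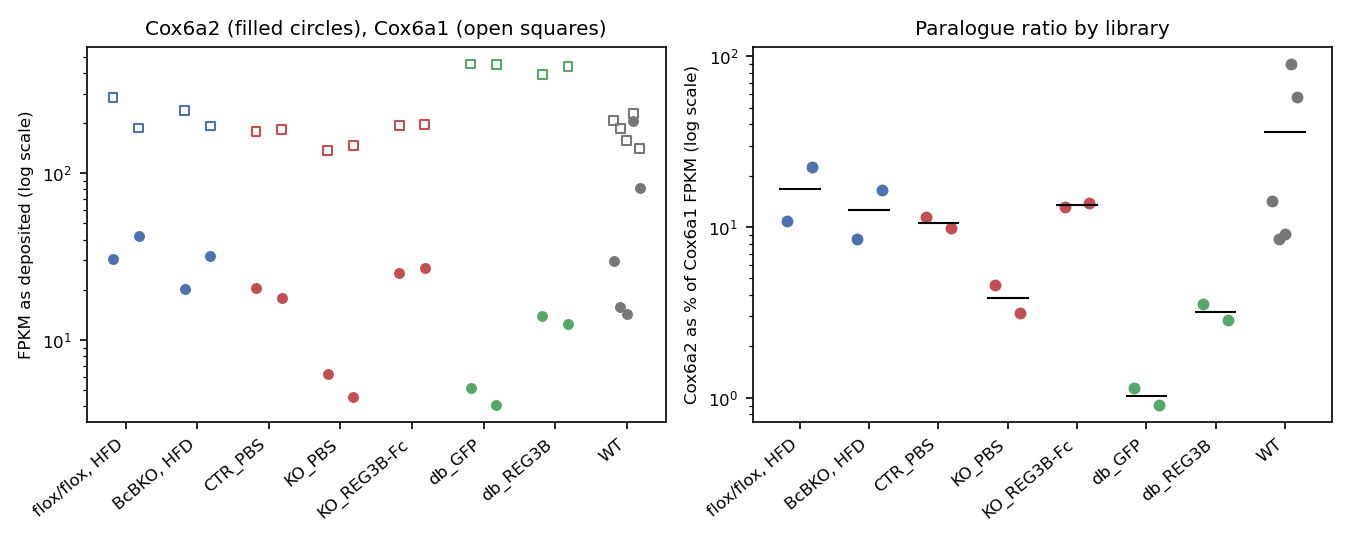
Left, FPKM as deposited (log axis) of Cox6a2 (filled circles) and Cox6a1 (open squares) in each of the 19 libraries by group. Right, Cox6a2 as a percentage of Cox6a1 (log axis), with a line at the group mean. KO_PBS lies below the other groups of the PBS table, db_REG3B lies above db_GFP, and the 5 WT libraries spread from 8.57 to 90.0%.

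Markers of skeletal muscle, the tissue where Cox6a2 is best known, were near 0. Of the 9 genes on the list, 6 were in the PBS table, and their sums were 2.31 and 2.07 FPKM for CTR_PBS, 1.09 and 1.07 for KO_PBS, and 2.27 and 2.57 for KO_REG3B-Fc. Only 1 of the 6, Mylpf, reached the level needed for the test. The muscle creatine kinase Ckm, the myosin heavy chain Myh1 and the troponin Tnnc2 were listed at 0 in at least 1 library. In the db table, 5 were listed, with sums of 4.54 and 3.97 FPKM in db_GFP and 4.80 and 5.12 in db_REG3B. These low sums were thus lowest in KO_PBS and higher in db_REG3B than in db_GFP, as was Cox6a2, although Acta1 and Actn3 were lower in db_REG3B. Their part was not tested. Beta cell markers also moved in the same direction as Cox6a2: 7 of 9 were lower in KO_PBS (median change -0.40), among them the transcription factor Mafa (-0.92) and the hormone Ucn3 (-0.93). In KO_REG3B-Fc against KO_PBS, 6 of 9 were higher and 0 lower, and in db_REG3B against db_GFP 8 of 9 were higher (median change 0.81). Their part in the change of Cox6a2 was not tested.

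For KO_PBS against CTR_PBS the other members made up a pattern of small changes whose direction depended on the scaling. After median scaling, 36 of the 89 members tested were higher (40.4%) and 8 lower (9.0%), against 24.6% of all genes higher and 20.0% lower. On FPKM as deposited, 0 were higher and 84 lower, where 8.66% and 81.5% of all genes were called. With libraries set to an equal sum over genes other than insulin, acinar and REG genes, 7 were higher and 32 lower, beside 15.8% and 45.7% of all genes. In the authors' deposited table, 13 of 94 members were higher and 5 lower by adjusted p, beside 14.7% and 11.2% of all genes. Without CTR_PBS replicate 1 the calls after median scaling went to 16 higher and 3 lower, and without CTR_PBS replicate 2 the lower ones to 4. The median member change was 0.09, -0.43 and -0.07 under the 3 scalings, where the median of all genes was 0.00, -0.44 and -0.14. Without Cox6a2, members changed by between -0.30 and 0.47 after median scaling. Acinar markers rose in 13 of 13 (median 1.44) and immune markers in 10 of 10 (median 1.87), the summed immune level being 130.8 and 123.4 FPKM in CTR_PBS and 362.5 and 367.6 in KO_PBS. Of 7 markers of other islet hormone cells 6 were higher after median scaling (median 0.28), but 2 were higher and 5 lower as deposited. The immune markers Cd3e, Cd3g and Ms4a1 were listed at 0 in at least 1 library. The part of these cells in the members' changes was not tested.

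**Figure D2:**
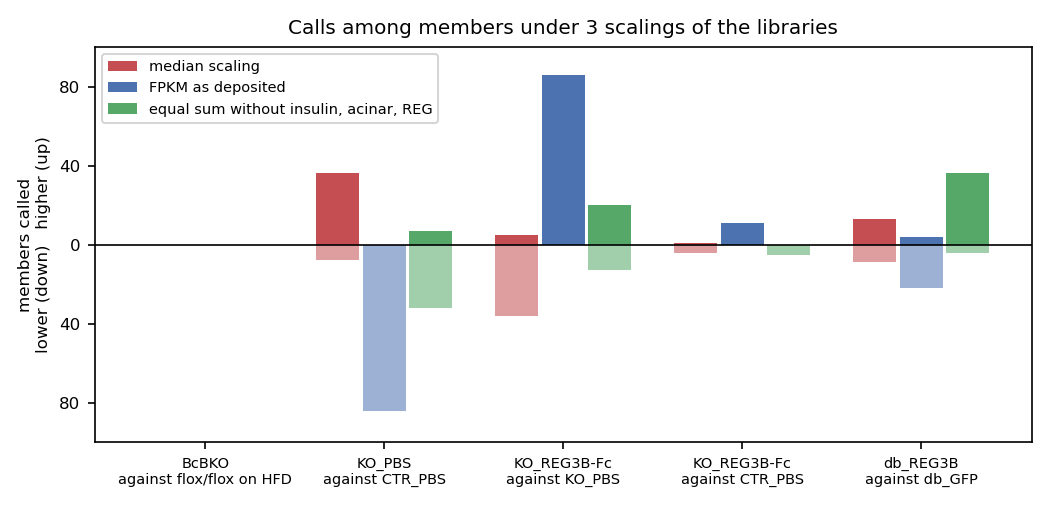
Number of members called higher (upward bars) and lower (downward, paler bars) at an adjusted p under 0.05 in each comparison, under 3 ways to scale the libraries. In KO_PBS the calls go from 36 higher and 8 lower to 0 higher and 84 lower, and on HFD there are none.

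By complex, complex V led after median scaling, with 12 of 17 members higher and 0 lower (median 0.15). Complex IV had 8 of 15 higher and 2 lower (median 0.15), complex III 4 of 8 higher and 0 lower (0.11), complex I 11 of 37 higher and 2 lower (0.09), and complex II 1 of 4 higher and 2 lower (-0.08). Of the assembly factors, 0 of 8 were higher and 2 lower (-0.15). On the deposited scale the medians of the same 6 groups were -0.38, -0.38, -0.41, -0.43, -0.60 and -0.57. A change of scaling shifts all genes of a library by nearly the same amount, and no test of the order of the complexes was made.

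The 8 lower members were lower under all 3 scalings: Cox6a2, Sdha, Sdhc, Ndufs1, Ndufb10, Cox8a, Ndufaf3 and Ndufaf6. Of these, Cox6a2, Sdha, Sdhc, Ndufs1 and Cox8a were also lower by adjusted p in the authors' deposited table. Both other scalings moved the median gene down (-0.44 as deposited and -0.14 with equal sums). Lower calls were therefore favoured to hold, and their holding is no separate check. Sdha, the flavoprotein of succinate dehydrogenase, was at 66.2 and 66.7 median-scaled FPKM in CTR_PBS and at 54.5 and 59.1 in KO_PBS (change -0.22, SE 0.04, adjusted p = 0.0042, limma). Sdhc, a membrane anchor of the same enzyme, was at 61.9 and 62.6 against 52.1 and 49.8 (change -0.28, adjusted p = 0.000615, limma). Both KO_PBS libraries were below both controls for each gene. The iron-sulfur subunit Sdhb went the other way, at 37.9 and 38.3 against 46.0 and 44.8 median-scaled FPKM (0.25, adjusted p = 0.00343, limma), with a deposited-scale change of -0.27. Ndufs1, an iron-sulfur core subunit of complex I, changed by -0.18 (adjusted p = 0.0202, limma), and the complex I assembly factors Ndufaf6 and Ndufaf3 by -0.30 (adjusted p = 0.0167) and -0.20 (adjusted p = 0.035).

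The largest rises after median scaling were those of Uqcrh and Atp5o. Uqcrh, the hinge protein of complex III, was at 117.6 and 124.2 median-scaled FPKM in CTR_PBS and at 169.1 and 166.8 in KO_PBS (0.47, SE 0.05, adjusted p = 0.000182, limma). Atp5o, the stalk subunit that confers oligomycin sensitivity, was at 62.6 and 69.0 against 83.7 and 96.6 (0.45, adjusted p = 0.00112, limma). The groups did not overlap for either gene. Ndufa1, a small subunit of complex I, changed by 0.39, Uqcrq of complex III by 0.35 and Cox5a of complex IV by 0.30 (adjusted p = 0.00712, 0.00139 and 0.000885, limma). Cox4i2 changed by 0.39 (adjusted p = 0.0177, limma) and Atp5g1, which encodes the rotor subunit c, by 0.11 (adjusted p = 0.0493, limma). On the deposited scale none of the 36 was called higher, and only Cox4i2 (0.02) had a positive change. Uqcrh was at 130.5 and 135.4 FPKM in CTR_PBS and 130.2 and 126.1 in KO_PBS, a change of -0.05. In the authors' deposited table Uqcrh changed by 0.44 (adjusted p = 9.26e-07) and Atp5o by 0.42 (adjusted p = 7.44e-05). Ndufa4l2, the hypoxia-induced paralogue of Ndufa4, did not pass (-0.15, adjusted p = 0.0847, limma).

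**Figure D3:**
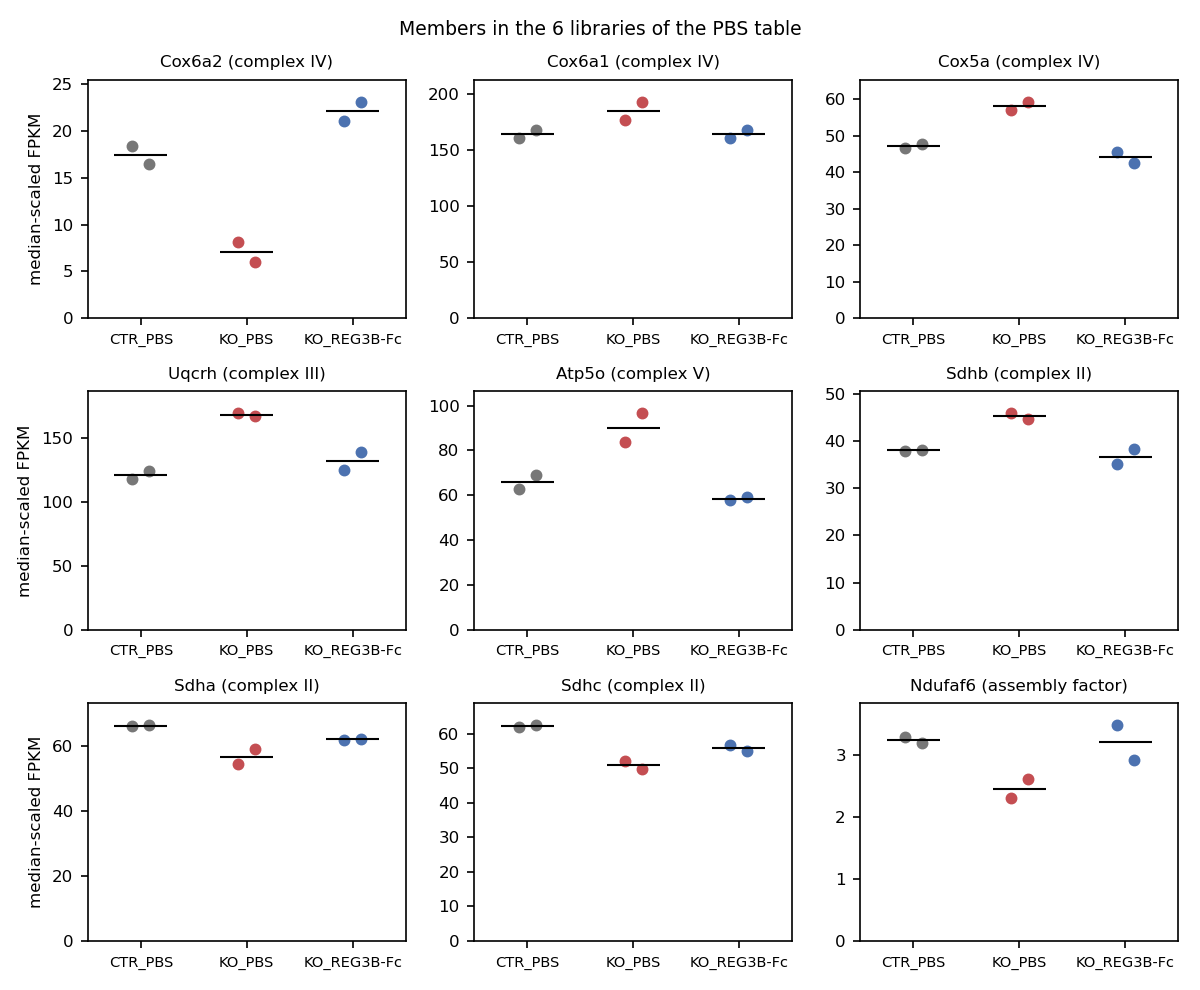
Median-scaled FPKM of 9 members in the 6 libraries of the PBS table (points, 1 per library, with a line at the group mean; each axis starts at 0). Cox6a2, Sdha, Sdhc and Ndufaf6 are lowest in KO_PBS, and Uqcrh, Atp5o, Cox5a, Sdhb and Cox6a1 are highest there on this scale.

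Between KO_REG3B-Fc and KO_PBS, 5 of 89 members were higher (5.6%) and 36 lower (40.4%) after median scaling, against 20.2% and 24.7% of all genes. On the deposited scale 86 were higher and 0 lower (86.2% and 6.97% of all genes), and with equal sums 20 were higher and 13 lower (40.2% and 16.9%). The authors' deposited table had 2 higher and 15 lower of 94, beside 10.2% and 13.9% of all genes. The comparison shares its KO_PBS libraries with the one above, so a change of opposite sign is partly built in. The 5 higher members were higher under all 3 scalings: Cox6a2 (1.53), Ndufaf6 (0.28), Cox6c (0.14), Sdha (0.13) and Sdhc (0.13), the last 3 with adjusted p of 0.037, 0.0418 and 0.0273 (limma). Cox6a2 and Sdha were also higher in the authors' deposited table. Both other scalings moved the median gene up here (0.53 as deposited and 0.11 with equal sums), so the holding of higher calls is no separate check. None of the 36 lower members was called lower on the deposited scale, where only Cox4i2 (-0.06) had a negative change. Without KO_REG3B-Fc replicate 1 the calls after median scaling were 2 higher and 22 lower, and 2 were higher with no filter or with these groups fitted alone.

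By complex, 11 of 17 members of complex V were lower in KO_REG3B-Fc than in KO_PBS, 8 of 15 of complex IV, 5 of 8 of complex III, 10 of 37 of complex I and 2 of 4 of complex II, and 0 of 8 assembly factors. Atp5o had the largest fall, from 83.7 and 96.6 to 57.7 and 59.2 median-scaled FPKM (-0.61, SE 0.07, adjusted p = 0.000202, limma), with no overlap. Its deposited values were 64.5 and 73.0 in KO_PBS and 69.3 in both KO_REG3B-Fc libraries, a change of 0.01. Next came Cox4i2 (-0.49, adjusted p = 0.00639), Cox5a (-0.39, adjusted p = 0.000207) and Ndufs7, an iron-sulfur core subunit near the coenzyme Q site (-0.35, adjusted p = 0.00499, limma). Uqcrh and Uqcrq each fell by 0.35 and Sdhb by 0.30. Acinar markers were lower in 13 of 13 and immune markers in 10 of 10 in this comparison, while 6 of 7 markers of other islet hormone cells were higher (median 0.79). The sum of the hormone cell markers was 8478 and 9037 FPKM in KO_PBS and 23340 and 24050 in KO_REG3B-Fc. Their part was not tested.

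Against CTR_PBS, KO_REG3B-Fc differed in few members: 1 of 89 was higher and 4 were lower after median scaling, against 5.47% and 5.30% of all genes. Uqcrc2, a core protein of complex III, was at 51.5 and 50.8 median-scaled FPKM in CTR_PBS and 44.1 and 43.6 in KO_REG3B-Fc (-0.22, adjusted p = 0.00778, limma). Ndufa4l2 (-0.25, adjusted p = 0.0482), Ndufv2 of the NADH-oxidising arm (-0.17, adjusted p = 0.0399) and Sdhc (-0.15, adjusted p = 0.0474) were also lower, and Atp5md, a small ATP synthase subunit, higher (0.16, adjusted p = 0.031, limma). On the deposited scale 11 were higher and 0 lower (16.8% and 2.87% of all genes), and with equal sums 0 were higher and 5 lower (4.32% and 7.30%). Leaving out CTR_PBS replicate 1 or 2 or KO_REG3B-Fc replicate 2 left 0 calls of either sign, and without KO_REG3B-Fc replicate 1 there was 1 of each. All 7 markers of other islet hormone cells were higher in KO_REG3B-Fc (median 0.97), with sums of 10780 and 10870 FPKM in CTR_PBS against 23340 and 24050, and 12 of 13 acinar markers were lower. Their part in the members' changes was not tested. No assembly factor passed, the smallest p being that of Ndufaf1 (-0.16, adjusted p = 0.117, limma).

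In db_REG3B against db_GFP, 13 of 90 members were higher (14.4%) and 9 lower (10.0%) after median scaling, against 20.7% and 25.6% of all genes. On the deposited scale 4 were higher and 22 lower (12.2% and 30.8% of all genes), and with equal sums 36 were higher and 4 lower (38.4% and 19.9%). The authors' deposited table had 5 higher and 2 lower of 91, beside 12.3% and 15.1%. Without db_GFP replicate 1 the calls after median scaling were 5 higher and 14 lower, without db_GFP replicate 2 there were 5 higher, and without db_REG3B replicate 1 there were 17 lower. Members other than Cox6a2 changed by between -0.53 and 0.35, and the median member change was -0.02.

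Under all 3 scalings, 4 members were higher in db_REG3B (among them Cox6a2, Uqcrq and Ndufaf6) and 4 lower (Ndufa1, Ndufa4l2, Atp5mpl and Atp5k). Uqcrq, a small subunit of complex III, was at 66.1 and 66.4 median-scaled FPKM in db_GFP and 81.3 and 73.3 in db_REG3B (0.22, adjusted p = 0.0118, limma). Ndufa1 was at 322.3 and 330.2 against 283.7 and 255.2 (-0.28, adjusted p = 0.00333, limma), and Ndufa4l2 at 18.7 and 19.1 against 14.7 and 15.7 (-0.30, adjusted p = 0.00325, limma). None of these groups overlapped. Atp5mpl and Atp5k, small membrane subunits of the ATP synthase, fell by 0.24 and 0.21. By complex, 6 of 37 members of complex I were higher and 3 lower, 1 of 4 of complex II was higher (Sdha, 0.16, adjusted p = 0.00795, limma), and 4 of 8 of complex III were higher. In complex IV 1 of 16 was higher (Cox6a2) and 3 lower, and in complex V 0 of 17 were higher and 3 lower. Ndufs3, a core subunit of complex I, changed by 0.17, Ndufa13 by -0.19 and Atp5o by -0.18. Cox4i2 (0.35), Cox7a1 (-0.53) and Atp5g1 (0.12) did not pass (adjusted p = 0.158, 0.283 and 0.0531, limma).

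Cell type markers also moved between the db groups. Besides the beta cell markers, 9 of 10 stellate cell and pericyte markers and 7 of 7 endothelial markers were lower in db_REG3B, with sums of 1372 and 1352 FPKM against 252.2 and 266.5 for the stellate list. Immune markers were lower in 6 of 7 and higher in 1, with sums of 584.0 and 589.7 against 270.6 and 283.1 FPKM. Of 7 markers of other islet hormone cells 5 were lower, with sums of 95770 and 97140 against 58440 and 59530 FPKM. Insulin took 34.6 and 35.0% of summed FPKM in db_GFP and 54.7% or more in both db_REG3B libraries, and the members together 1.58 and 1.60% against 1.20 and 1.15%. The part of this in the members' changes was not tested.

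**Figure D4:**
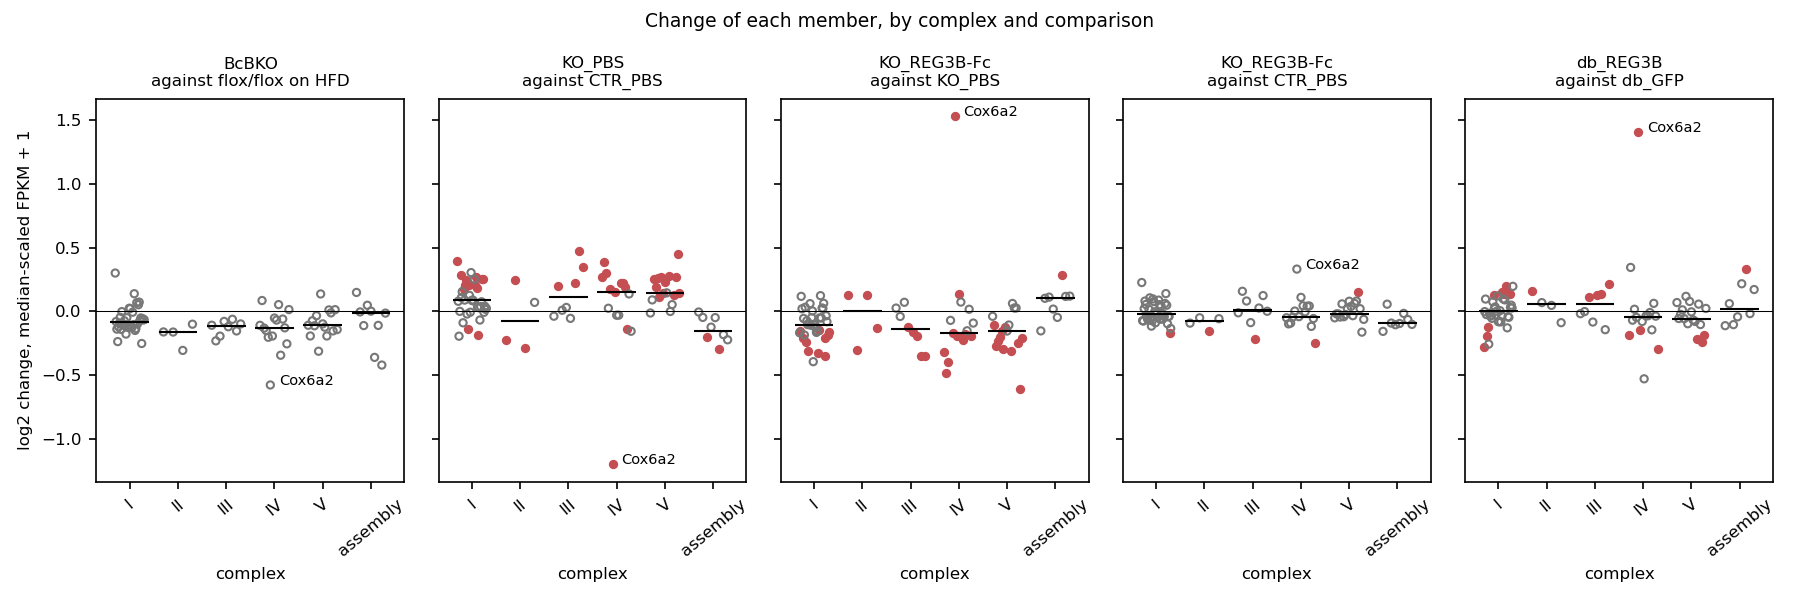
Change of each tested member on the log2(FPKM + 1) scale after median scaling, by complex, in the 5 comparisons (filled, adjusted p under 0.05; open, not called; line, median of the complex). Cox6a2 is the point farthest from 0 in each of the 5 panels.

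On HFD no member passed in BcBKO against flox/flox: 0 of 87 were called by limma in either direction, and 0 had an unadjusted p under 0.05. Of all genes 0.00865% were called (1 of 11560, higher), and the authors' deposited table likewise had 0 members called in either direction, beside 0.109% of all genes higher and 0.0546% lower. After median scaling 71 of 87 changes were negative (median -0.10), but on the deposited scale the median was -0.01. After median scaling, groups did not overlap for 28 members that were lower and 2 that were higher. That is 34.5% of members beside 27.5% of all genes, in either direction. Groups of 2 libraries against 2 drawn at random do not overlap at a rate of 0.333, so this share is near chance. Shares of all genes by direction are not given, so the split of 28 and 2 has nothing to be set against. In all 4 genes of complex II both BcBKO libraries were below both flox/flox libraries after median scaling, and none of the 4 passed. As deposited, the groups overlapped for Sdhb (44.7 and 42.5 FPKM in flox/flox, 39.8 and 43.2 in BcBKO). They also overlapped for Sdhd (60.7 and 58.4 against 58.2 and 60.1). Sdhc was at 82.7 and 70.0 median-scaled FPKM in flox/flox and 60.8 and 62.3 in BcBKO (-0.30, adjusted p = 1.00, limma). Ndufa1 (0.30), Uqcr11 (-0.23), Atp5g1 (-0.31), Ndufaf4 (-0.36) and Cox6a2 (-0.58) had the smallest p of their roles, each with an adjusted p of 1.00. Acinar markers took 1.95 and 7.26% of summed FPKM in the flox/flox libraries and 2.96% in both BcBKO libraries.

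In the 5 WT libraries, which form 1 group and allow no comparison, the members varied more than most genes. Over the 89 members with a median of at least 1 FPKM, the highest library was 1.96 times the lowest at the median member after scaling, where the same figure for 11330 genes was 1.62. Only 9 of the 89 stayed within 1.5-fold, and 50 within 2-fold. Cox6a2 varied most, 8.85-fold, with 29.6, 15.9, 14.3, 206.4 and 82.2 FPKM in replicates 1 to 5. Replicate 4 was the highest and replicates 2 and 3 the lowest, and Cox6a2 reached 90.0% of Cox6a1 in replicate 4 against 8.57% in replicate 2. Next came Atp5k (6.32-fold), Atp5e (4.24-fold), small subunits of the ATP synthase, and Ndufc1 of complex I (4.18-fold). Replicate 5 was the lowest library for 75 of the 89 members. The table left 218 lines without a value in replicate 4 and 98 in replicate 5, and 0 in replicates 1 to 3, so these 2 libraries also stand apart in how they are listed. Insulin took 59.0% of summed FPKM in replicate 4 and between 27.0 and 39.5% in the others.

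**Figure D5:**
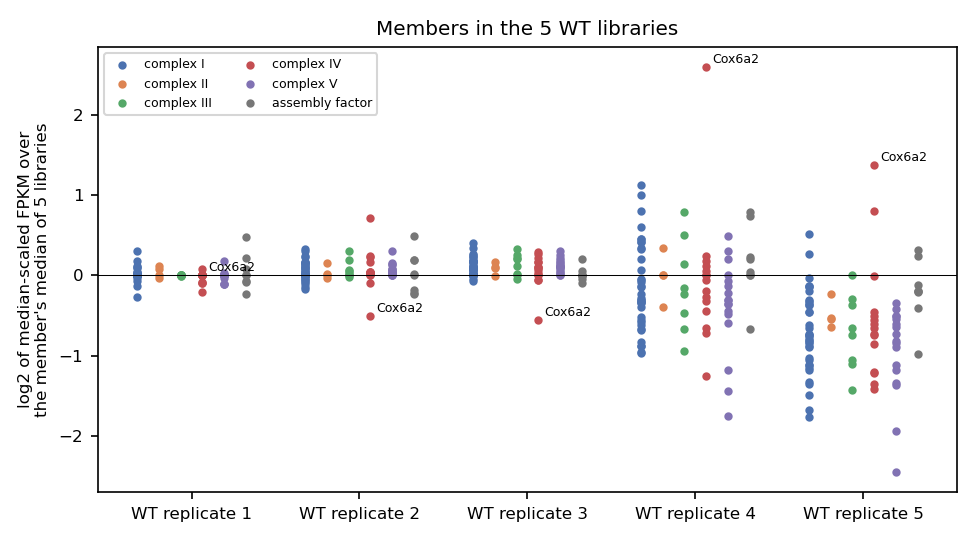
Median-scaled FPKM of each of 89 members relative to its own median over the 5 WT libraries, on a log2 axis, coloured by complex. Most points of replicate 5 lie below 0, and Cox6a2 lies highest in replicates 4 and 5.

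Other genes of mitochondrial respiration were followed from fixed lists. Of 78 mitochondrial ribosomal proteins, which make the subunits encoded in mitochondria, 18 were higher and 2 lower in KO_PBS against CTR_PBS after median scaling, 3 higher and 21 lower in KO_REG3B-Fc against KO_PBS, and 6 higher and 11 lower in db_REG3B. Of all genes 24.6% were higher and 20.0% lower in KO_PBS, 20.2% and 24.7% in KO_REG3B-Fc against KO_PBS, and 20.7% and 25.6% in db_REG3B. As deposited, the counts for the ribosomal proteins were 0 higher and 69 lower, 75 and 0, and 3 and 15, and with equal sums 9 and 28, 12 and 7, and 26 and 3. The shares of all genes in the same order were 8.66% and 81.5%, 86.2% and 6.97%, and 12.2% and 30.8% as deposited. With equal sums they were 15.8% and 45.7%, 40.2% and 16.9%, and 38.4% and 19.9%. Of 18 genes of the TCA cycle and pyruvate dehydrogenase, 2 were higher and 4 lower in KO_PBS after median scaling, 0 and 18 as deposited and 0 and 11 with equal sums. Pcx, which replenishes the cycle from pyruvate and is abundant in beta cells, changed by -0.42 (adjusted p = 0.000213, limma) and Idh3a by -0.32 (adjusted p = 0.00139). In KO_REG3B-Fc against KO_PBS, 5 of 18 were higher and 3 lower, against 18 and 0 as deposited and 9 and 0 with equal sums. In db_REG3B, 6 of 18 were higher and 2 lower, against 2 and 2 as deposited and 11 and 0 with equal sums. As deposited, Fh1, the fumarase, was at 67.3 and 71.3 FPKM in db_GFP against 138.3 and 139.7 in db_REG3B, and Pcx at 31.0 and 30.9 against 53.4 and 57.8. After median scaling Fh1 rose by 1.07 (adjusted p = 1.17e-06, limma) and Pcx by 0.89 (adjusted p = 3.56e-06, limma). Those rises held under all 3 scalings.

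Among assembly factors with other symbols, 3 of 38 were higher and 4 lower in KO_PBS (0 and 36 as deposited, 0 and 11 with equal sums). In db_REG3B 5 were higher and 4 lower (3 and 6, 14 and 2), and Pet117, an assembly factor of complex IV, fell by 1.07 (adjusted p = 0.000474, limma). Of all genes 24.6% were higher and 20.0% lower in KO_PBS (8.66% and 81.5% as deposited, 15.8% and 45.7% with equal sums). For db_REG3B these shares were 20.7% and 25.6% (12.2% and 30.8%, 38.4% and 19.9%). Of 11 genes of cytochrome c and coenzyme Q synthesis tested in the PBS table, 1 was higher and 4 lower in KO_PBS (0 and 10 as deposited, 0 and 6 with equal sums). Of 16 regulators of mitochondrial biogenesis 3 were higher and 1 lower (0 and 15, 0 and 4), with the polymerase of the mitochondrial genome Polg at 0.26, the transcription factor Nrf1 at 0.25 and the nuclear receptor Esrrg at -0.39 (adjusted p = 0.00255, 0.0266 and 0.00675, limma). Cyc1, the cytochrome of complex III whose symbol the rule does not take in, changed by 0.13 in KO_PBS (adjusted p = 0.0282, limma), with -0.38 on the deposited scale. Higd1a, a hypoxia-induced protein of the respiratory chain, was at 2.35 and 2.23 FPKM as deposited for CTR_PBS against 3.46 and 3.05 for KO_PBS. After median scaling, which widens this gap, Higd1a changed by 0.77 in KO_PBS (adjusted p = 2.73e-05, limma). On the same scale it fell by 0.45 in db_REG3B (adjusted p = 0.00102, limma). On HFD 0 members of any of these lists passed in either direction.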

How the data were processed

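Islet messenger RNA was sequenced in paired ends on a BGISEQ-500, per the labels' protocols, with reads on GRCm38.p6 per the submitters' processing notes. The aligner and counter are not given in the sources used here. FPKM per gene and library were deposited by the authors in 4 tables, and TPM deposited by the authors for the diet table were not used in a test. The p-values and q-values deposited by the authors were made with DESeq2 in the PBS and db comparisons, per the file headers, while the headers of the diet table name no tool. Per the file headers, no tool is stated for the log2 fold changes deposited by the authors. No counts were used, so depth is unknown and no counting interval is given. With 2 libraries a group, their number limits the precision.

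Tables were processed separately, and tests were made only within a table. Libraries were scaled to the median ratio to the geometric mean library, a gene was kept if 2 or more libraries reached 1 FPKM, and log2(FPKM + 1) was fitted with all groups of a table in limma 3.58.1 (R 4.3.3) with a mean-variance trend. P-values are two-sided and were adjusted by Benjamini-Hochberg over all genes tested, with a threshold of 0.05. Fold changes on this scale understate the change of low genes. The fit was tested on simulated data. Ratios of paralogues were compared by an exact permutation test over libraries (scipy 1.17.1, numpy 2.4.6 and pandas 2.3.3).

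Alternatives were FPKM as deposited, an equal sum without insulin, acinar and REG genes, no filter, a pseudocount of 0.1, the replicate number as a block, the 2 groups alone, and leaving out each library. The members and lists were chosen with earlier results of these data known. Cox6a2 and Cox6a1 were always named, together with the largest called rises and falls in each complex, over all members and in each other list, the member with the smallest p where a complex had no call, and restricted isoforms. Members named as called under every scaling, those with the widest spread in WT, the genes that define the sum scaling, the 4 motifs, the promoters shown and the measures examined for single WT libraries that stand apart were chosen after values were seen. The values of 1 member are not reported here. Promoters of Atp5b and Cox5a, also looked at, held neither an NRF1 nor an ETS match.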

Additional observations from a re-analysis of the deposited data

Results flagged for a closer look

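A single library that lay apart from the other 4 was looked for in the WT group with 23 measures of the members, by the gap to the nearest library as a share of the range. For 1 measure chosen beforehand, chance gives about 1 in 20. The 23 measures were chosen after values were seen and partly contain one another, so this rate does not hold for them. In WT replicate 4, members of complex III held 10.4% of the summed FPKM of the members listed in all tables, and the other libraries 9.54 to 9.74%. Uqcrb alone was at 265.3 FPKM there and at 94.7 to 143.5 in the others. Uqcr11, Uqcrh and Uqcrc1 were not highest in replicate 4, so this share does not describe complex III as a whole. Complex IV held 28.2% in the same library and 25.4 to 26% in the others. This sum includes Cox6a2, at 206.4 FPKM there and at 14.3 to 82.2 in the others. Cox4i1 was lower in replicate 4 than in replicates 1 to 3, so the share does not describe complex IV as a whole. Ndufb4 was at 132.4 FPKM in WT replicate 4 and at 39.9 to 54.9 in the others, and the line of its near-identical copy Ndufb4c had no value in that library. Ndufa4l2 was at 5.29 FPKM in WT replicate 5 and at 1.93 to 2.82 in the others. These are values of single libraries, and no cause was tested.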

How the results depend on the processing

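Of 265 alternative values, 194 kept their direction and their side of the threshold, 7 lost and 2 gained significance, 52 moved and 10 reversed. Cox6a2 kept direction and call in 46 of 48. The exceptions were against CTR_PBS in KO_REG3B-Fc, where it passed as deposited (0.43) and with the 2 groups alone (0.34). As deposited, calls higher and lower were 0 and 84 for KO_PBS, 86 and 0 for KO_REG3B-Fc against KO_PBS, 11 and 0 against CTR_PBS, and 4 and 22 for db_REG3B. With equal sums they were 7 and 32, 20 and 13, 0 and 5, and 36 and 4. The median member change in KO_PBS went from 0.09 to -0.43 as deposited and -0.07 with equal sums, that of KO_REG3B-Fc against KO_PBS from -0.11 to 0.49 and 0.01, and that of db_REG3B from -0.02 to 0.10 with equal sums. These scalings differ by construction in what is held equal, and the cause of other moves was not tested. With no filter, 2 were higher in KO_REG3B-Fc against KO_PBS, 0 higher and 1 lower against CTR_PBS, and 8 higher in db_REG3B. With the 2 groups alone, 2 were higher in either comparison of KO_REG3B-Fc.

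Cox6a1 reversed as deposited in KO_PBS (-0.35) and in KO_REG3B-Fc against KO_PBS (0.46), and with equal sums against CTR_PBS (-0.0297) and in db_REG3B (0.068). Leaving out 1 library gave 16 to 34 higher and 3 to 8 lower in KO_PBS, 2 to 7 and 22 to 35 in KO_REG3B-Fc against KO_PBS, 0 to 1 and 0 to 1 against CTR_PBS, and 5 to 14 and 7 to 17 in db_REG3B. In such fits the lone library is assumed to vary like the other groups. Over them Cox6a1 ranged from -0.46 to 0.0606 on HFD and from -0.0277 to 0.0363 in KO_REG3B-Fc against CTR_PBS (-0.0226 without KO_REG3B-Fc replicate 2). In db_REG3B it ranged from -0.0988 to 0.0052, the latter without db_REG3B replicate 1, and the Cox6a2 to Cox6a1 ratio on HFD ranged from -0.90 to 0.147 (0.0865 without BcBKO replicate 1).

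The labels share replicate numbers but do not say that these pair the libraries. Deviations of same-numbered libraries correlated across genes at 0.67 on HFD and between -0.0507 and 0.0469 elsewhere. With a replicate block, calls higher and lower were 0 and 0 on HFD, 38 and 9 in KO_PBS, 5 and 39 in KO_REG3B-Fc against KO_PBS, 1 and 2 against CTR_PBS, and 14 and 11 in db_REG3B. Cox6a2 on HFD (-0.58) had an adjusted p = 0.124 with this block (limma), which did not pass.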

Other observations

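On HFD some members differed more between replicate numbers than between genotypes. Atp5g2, which encodes the rotor subunit c of the ATP synthase, was at 25.7 and 5.66 FPKM in flox/flox replicates 1 and 2 and at 25.0 and 8.28 in BcBKO replicates 1 and 2. Cox7c of complex IV was at 206.2 and 115.0 against 211.2 and 117.4 FPKM, and Ndufc1 of complex I at 68.1 and 42.1 against 78.5 and 50.5. These genes were picked after their values were seen, and no cause was tested.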
